A study of Rattus norvegicus with 53 samples.

Results

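The genes described here are Nr1h3, the gene of liver X receptor alpha, and 6 genes of lipid handling: Abca1, Abcg1, Srebf1, Mylip, Apoe and Fabp5. They were followed in blood cells of healthy rats that had been cultured with serum from rats with or without a background of autoimmune diabetes. Members were all probe sets that the array annotation assigns to 1 of these symbols alone, which gave 14 of the 31042 probe sets tested and 7 of the 14217 genes with a single symbol. Abca1 has 4 probe sets, Abcg1 has 3, Apoe and Srebf1 have 2 each, and Nr1h3, Fabp5 and Mylip have 1 each. Where a gene has several, the one with the highest mean over all arrays leads and is the one meant unless another is named: 1383355_at for Abca1, 1368103_at for Abcg1, 1370862_at for Apoe and 1388426_at for Srebf1.

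Peripheral blood mononuclear cells (PBMC) of healthy 180-day-old BN (Brown Norway) rats were cultured for 6 h with serum or plasma (the labels use both words; 20% for the autologous group), and each of 53 cultures gave 1 Affymetrix rat expression array. Autologous BN serum was used in 10 cultures and serum of other BN rats (allogeneic) in 15, both from 180-day-old donors. Serum of 60-day-old BioBreeding (BB) rats came from the DRlyp/lyp line (4 cultures) or the DR+/+ line (4 cultures). In 4 further cultures each, 60-day DRlyp/lyp serum was supplemented with IL-1RA, the interleukin-1 receptor antagonist, or autologous BN serum with IL-1B (interleukin-1 beta). Serum of 40-day-old DRlyp/lyp rats came from animals that, according to the design text, had received human IL-1RA (6 cultures) or PBS (6 cultures) for 10 days from day 30, at a dose of 350 ug/kg/day in the treatment protocol. The sample labels of the first of these describe IL-1RA as added to the serum instead, and the design text was followed. As background, DRlyp/lyp rats lack most T cells and develop diabetes spontaneously, while the related DR+/+ rats do not under clean housing. BB serum therefore differs from allogeneic BN serum in strain and in donor age, and these cannot be told apart. The labels do not say whether the replicates of a group came from separate animals or cultures, so p-values measure the spread between these arrays, which may be technical.

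Liver X receptors are nuclear receptors that bind oxysterols and, together with a retinoid X receptor, switch on genes that clear cholesterol from cells. In monocytes and macrophages their best known targets are the cholesterol exporters ABCA1 and ABCG1, the lipoprotein APOE, the lipogenic transcription factor SREBP1c (encoded by Srebf1) and the ubiquitin ligase IDOL (encoded by Mylip), which degrades the low density lipoprotein receptor. FABP5 is a small cytosolic carrier that delivers fatty acids to nuclear receptors.

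Promoter sequences in the RefSeq table (rat build GRCr8, windows of 300 bases that span a start site) were found for Nr1h3, Abca1, Apoe, Srebf1 and Mylip, 8 start sites in all. Both strands were searched for the classical receptor element, the direct repeat DR4 (AGGTCA given again after a spacer of 4 bases), which 0.00598% of 33469 promoters of 300 bases hold, and for its single hexamer, which 16.2% hold. Neither occurs with these exact letters in any of the 8 windows, and variants of the repeat were not part of that search. After the sequences had been read, a related repeat, GGTTA and CGGTCA with 4 bases between them, was searched too, which 3 promoters (0.00896%) hold, one of them that of Abca1. It lies at -70 from the start site on the minus strand of the printed window. Matches in the members are no test of this repeat, which was chosen with their sequences known. Its shorter form, GGTTA and CGG with 4 bases between them, which every longer match also contains, occurs in 93 promoters (0.278%), among them one of the 2 Srebf1 start sites, at -222 and at -206. TGACNNNGC, the core of the antioxidant response element, occurs in 12.1% of promoters and once among the members, in an Apoe window at -47. These are matches of letters in a window, not measured binding sites. The window with this repeat and the one with its shorter form are shown because both genes are textbook targets, of which Abca1 rose in the cultures below and Srebf1 was not called. Each is 5' to 3' on the gene's strand, with matched letters in capitals.
Abca1, chr5:72596424-72596723 (minus strand): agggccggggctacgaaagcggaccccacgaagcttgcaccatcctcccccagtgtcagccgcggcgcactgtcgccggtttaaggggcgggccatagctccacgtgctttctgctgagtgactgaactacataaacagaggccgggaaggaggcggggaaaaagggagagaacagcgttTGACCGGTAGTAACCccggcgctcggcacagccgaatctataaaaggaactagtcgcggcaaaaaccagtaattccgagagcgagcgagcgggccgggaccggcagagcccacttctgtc
Srebf1, chr10:45518961-45519260 (minus strand): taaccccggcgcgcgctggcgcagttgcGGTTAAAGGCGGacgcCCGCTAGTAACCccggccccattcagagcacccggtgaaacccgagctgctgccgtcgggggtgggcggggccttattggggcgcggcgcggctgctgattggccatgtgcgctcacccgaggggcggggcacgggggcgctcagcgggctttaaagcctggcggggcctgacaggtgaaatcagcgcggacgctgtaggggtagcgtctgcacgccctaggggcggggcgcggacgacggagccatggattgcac

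Values are the deposited log2 levels, so a difference of 1.00 is a doubling. The arrays fell into 2 array sets that the labels do not describe: set 1 held autologous replicates 1 to 6, allogeneic replicates 1 to 3 and the 12 day-40 arrays (21 arrays), and set 2 held the other 32. Array medians were 5.29 to 5.41 in set 1 and 5.36 to 5.62 in set 2. A measure of RNA quality, the actin level at its 3' end minus that at its 5' end (larger where RNA is more broken), was 3.58 ± 0.759 (SD, n = 21) and 2.58 ± 0.402 (SD, n = 32). The sets also moved the members in cultures of the same kind. Between autologous cultures, set 2 minus set 1 was -1.55 for Mylip, -1.77 for Abcg1 and 0.97 for Fabp5, so every comparison below was fitted within a set. One array in each set stood apart in actin: allogeneic replicate 2 in set 1 (0.762) and DR+/+ replicate 4 in set 2 (1.13), and results that rest on the second are also given without it. T cell, B cell and monocyte markers, the cells that PBMC should hold, were measured on every array, with mean log2 levels of 8.45 to 10.2 for 8 T cell genes, 7.16 to 8.77 for 4 of 7 listed B cell genes and 5.49 to 7.40 for 12 monocyte and macrophage genes. Platelet genes (8.33 to 10.8, 7 of 8 listed) and erythroid genes (9.39 to 12.1, 4 of 6 listed) were measured as well.

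**Figure D1:**
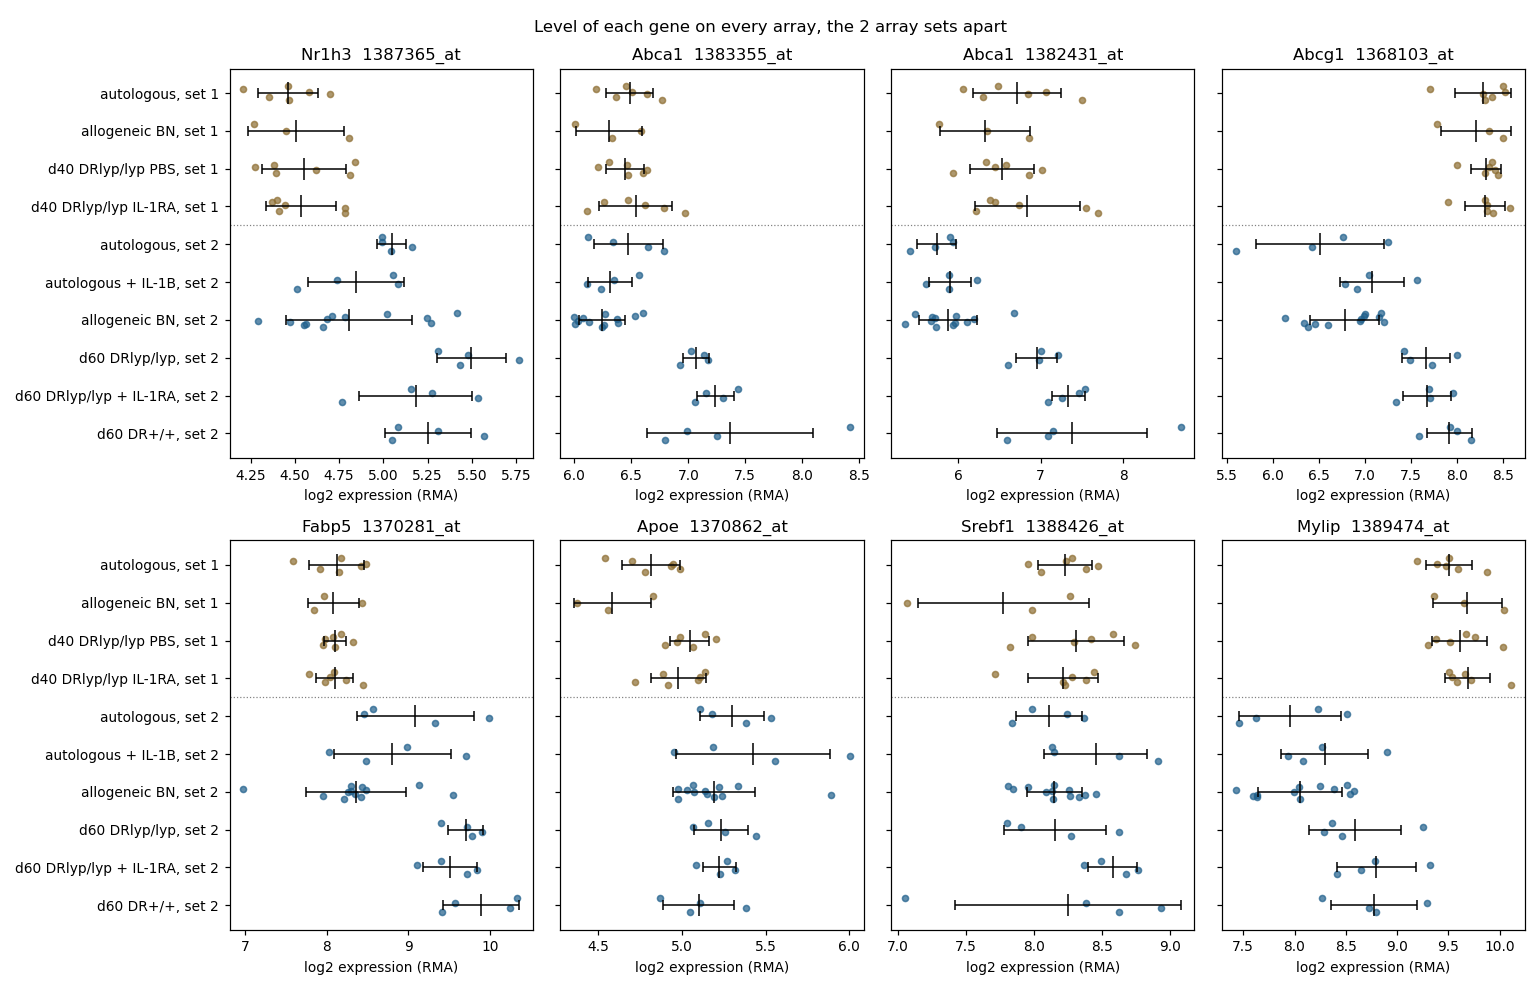
Log2 level of the leading probe set of each of the 7 genes and of Abca1 1382431_at by serum group, with set 1 and set 2 apart, 1 point per array and black bars for the group mean ± SD. In set 2 the day-60 groups lie highest for Abca1 and Abcg1, while the day-60 DRlyp/lyp and DR+/+ groups overlap with allogeneic BN for Apoe and Srebf1.

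Serum of 60-day-old BB rats of either line gave higher levels of both cholesterol exporters and of Fabp5 than allogeneic BN serum did, and DRlyp/lyp serum also gave a higher level of the receptor gene Nr1h3. In limma's fit of set 2, with Benjamini-Hochberg adjustment over all probe sets, probe sets with an adjusted p under 0.05 were called. With DRlyp/lyp serum 7 of the 14 member probe sets were called higher and 0 lower, where 16% of all probe sets were called, 9.69% higher and 6.3% lower. With DR+/+ serum 8 were called higher and 1 lower, where 19.6% of all were called, 11% higher and 8.53% lower. The median difference of the 14 was 0.50 and 0.45, beside -0.05 over all probe sets in both comparisons. The comparisons share the same 12 allogeneic arrays. The 14 probe sets stand for 7 genes, and every Abca1 probe set is among those called higher in both comparisons. The members were chosen with earlier results of these data known. When each array was centred on its median, the split of all calls moved from 3009 higher and 1955 lower to 3896 and 974 with DRlyp/lyp serum, and from 3422 and 2647 to 4111 and 1640 with DR+/+ serum, and the members called higher numbered 7 and 9. In mixed blood cells, more cells of a type and more RNA per cell cannot be told apart.

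The DRlyp/lyp counts depend on 1 array. Without DRlyp/lyp replicate 1, 292 probe sets in all and 2 members passed, the Abca1 probe sets 1383355_at (0.87, adjusted p = 0.0388) and 1382431_at (1.19, adjusted p = 0.0284), while adjusted p was 0.0504 for Nr1h3, 0.0637 for Abcg1 and 0.0534 for Fabp5 at differences close to those of the full fit (0.71, 0.86 and 1.31). Abcg1 was also lost without DRlyp/lyp replicate 3 (0.77, adjusted p = 0.0627). Leaving out DR+/+ replicate 3 kept 6 members. Leaving out DR+/+ replicate 4 gave 11, but calls over all probe sets rose as well, to 8967 from 6069 in the full fit.

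The only Nr1h3 probe set is rather dim, at percentile 38.6 of mean level. Nr1h3 measured 5.43, 5.77, 5.48 and 5.31 in the 4 DRlyp/lyp cultures and 5.05, 5.57, 5.31 and 5.08 in the 4 DR+/+ cultures. The 12 allogeneic cultures of set 2 ran from 4.29 to 5.42 with a median of 4.70, and the 4 autologous ones measured 5.04, 5.16, 4.99 and 4.99. All DRlyp/lyp cultures thus lay above all autologous ones and above the allogeneic median, with replicate 15 the allogeneic culture that reached into their range. Against allogeneic serum the difference was 0.69 with DRlyp/lyp serum (SE 0.163, adjusted p = 0.00792), a 1.61-fold level. With DR+/+ serum it was 0.45 (SE 0.163) and did not pass (adjusted p = 0.0502), but passed without DR+/+ replicate 4 (0.50, adjusted p = 0.0386). In the order of set 2 means the step from DRlyp/lyp to DR+/+ (0.24) exceeded their pooled SD of 0.219, whereas no other neighbouring groups differed by more than theirs. Limma did not call that step (unadjusted p = 0.228).

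Abca1, which loads cholesterol onto apolipoprotein A-I, measured 6.93, 7.17, 7.14 and 7.03 with DRlyp/lyp serum. With DR+/+ serum it measured 6.79, 7.25, 6.99 and 8.42. The allogeneic cultures ran from 6.00 to 6.60 (median 6.25), and the autologous ones measured 6.79, 6.65, 6.34 and 6.12. Each of the day-60 BB cultures lay above all 12 allogeneic ones, and DR+/+ replicate 4 lay far above the other 3 of its group. The difference from allogeneic serum was 0.82 with DRlyp/lyp serum (SE 0.18, adjusted p = 0.0055; 1.77-fold). It was 1.12 with DR+/+ serum (SE 0.18, adjusted p = 0.000313; 2.18-fold), and 0.77 without DR+/+ replicate 4 (adjusted p = 0.00106).

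The second brighter Abca1 probe set, 1382431_at, rose further, by 1.08 with DRlyp/lyp serum (adjusted p = 0.00483) and by 1.51 with DR+/+ serum (adjusted p = 0.000206). Without DR+/+ replicate 4, at 8.70 against 6.59, 7.10 and 7.15 in its group, the second value was 1.07 (adjusted p = 0.000651). The remaining 2 probe sets, 1394490_at and 1384381_at, lie low in the range of the array (percentiles 11 and 4.93 of mean level) and rose by 0.46 and 0.53 with DRlyp/lyp serum and by 0.43 and 0.47 with DR+/+ serum. All 4 Abca1 probe sets were called in both comparisons. The leading 2 kept their call in 16 of 16 fits that each left out 1 array of the groups compared.

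Abcg1, which passes cholesterol to high density lipoprotein, measured 7.72, 7.49, 8.00 and 7.43 with DRlyp/lyp serum and 8.15, 7.58, 8.00 and 7.92 with DR+/+ serum. The allogeneic cultures ran from 6.13 to 7.21 (median 6.95), and the autologous ones measured 5.60, 6.43, 7.25 and 6.77. None of the day-60 BB cultures overlapped with either BN group. The difference from allogeneic serum was 0.88 with DRlyp/lyp serum (SE 0.216, adjusted p = 0.00983; 1.84-fold) and 1.14 with DR+/+ serum (SE 0.216, adjusted p = 0.00114; 2.20-fold).

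The other Abcg1 probe sets did not follow it closely. With DR+/+ serum 1373995_at rose by 0.45 (adjusted p = 0.0254), a call that was lost without DR+/+ replicate 3 (0.33, adjusted p = 0.158). The third, 1387054_at, averaged 5.15 with DRlyp/lyp, 5.10 with DR+/+ and 5.13 with allogeneic serum. It was called in neither comparison, and over all arrays with set means removed it correlated with the leading one at r = -0.36. The probe sets of Abca1 correlated with each other at r = 0.54 to 0.88, those of Srebf1 at 0.37 and those of Apoe at -0.23.

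Fabp5 measured 9.78, 9.90, 9.73 and 9.40 with DRlyp/lyp serum and 9.42, 10.25, 9.57 and 10.34 with DR+/+ serum. The allogeneic cultures spread from 6.97 to 9.55 (median 8.32), and the autologous ones measured 9.33, 9.99, 8.46 and 8.57. The upper end of both BN groups overlapped with the BB cultures. The difference from allogeneic serum was the largest in size among the leading probe sets, at 1.34 with DRlyp/lyp serum (SE 0.306, adjusted p = 0.00696; 2.53-fold) and 1.53 with DR+/+ serum (SE 0.306, adjusted p = 0.00176; 2.89-fold). Against autologous serum it was smaller, at 0.62 (SE 0.375, adjusted p = 0.93) and 0.81 (SE 0.375, adjusted p = 0.344) in limma's fit, and neither was called. Allogeneic cultures averaged 0.72 below autologous ones, which was not called either.

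Mylip measured 8.46, 8.29, 9.26 and 8.37 with DRlyp/lyp serum and 8.80, 8.73, 9.29 and 8.27 with DR+/+ serum, while allogeneic cultures ran from 7.43 to 8.58 (median 8.05). Replicate 3 was the highest of both BB groups, and each group overlapped with the allogeneic one. The difference of 0.72 with DR+/+ serum passed (SE 0.237, adjusted p = 0.0333) and that of 0.54 with DRlyp/lyp serum did not (SE 0.237, adjusted p = 0.106). The DR+/+ call held in 11 of 16 fits that left out 1 array, with an adjusted p of up to 0.172, and it was lost after a second quantile normalization (0.37, adjusted p = 0.264).

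Srebf1 and Apoe showed no such rise. Srebf1 measured 8.27, 8.62, 7.91 and 7.80 with DRlyp/lyp serum and 8.63, 8.93, 8.38 and 7.05 with DR+/+ serum, against 7.81 to 8.45 (median 8.14) with allogeneic serum. DR+/+ cultures thus held both the highest and the lowest Srebf1 level of set 2, the lowest being replicate 4, the array with the lowest actin difference. In set 1 the lowest Srebf1 level, 7.06 in allogeneic replicate 2, also fell on the array with the lowest actin difference. The difference with DR+/+ serum was 0.10 (adjusted p = 0.752; 95% interval -0.34 to 0.53), but 0.50 without replicate 4 (adjusted p = 0.0378) and 0.37 with actin as a covariate (adjusted p = 0.181). With DRlyp/lyp serum it was below 0.01 in size, with an interval of -0.43 to 0.44. The other Srebf1 probe set, 1371104_at, averaged 5.71 with either BB serum and 5.80 with allogeneic serum, and was called in neither comparison.

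Apoe measured 5.44, 5.26, 5.07 and 5.16 with DRlyp/lyp serum and 5.05, 5.38, 5.11 and 4.87 with DR+/+ serum, within the allogeneic range of 4.98 to 5.89 (median 5.14) except for DR+/+ replicate 4. The differences were 0.04 (interval -0.25 to 0.34) and -0.09 (interval -0.39 to 0.21), and neither was called. This leading probe set lies at percentile 43.8 of mean level. The dimmer Apoe probe set 1371288_at, at percentile 21.7, fell by 0.35 with DR+/+ serum in limma's fit (adjusted p = 0.0351). That was the only call of a lower level among the members. It held in 10 of 16 fits that left out 1 array and was lost after median centring (adjusted p = 0.0801) and after a second quantile normalization (adjusted p = 0.187).

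In the order of the set 2 means, day-60 serum took the first 3 places for each of Nr1h3, Abca1, Abcg1, Fabp5 and Mylip. Abca1 ran from 7.36 ± 0.728 (SD, n = 4) with DR+/+ serum through 7.24 ± 0.166 with IL-1RA added and 7.07 ± 0.111 with DRlyp/lyp serum to 6.47 ± 0.303 with autologous, 6.31 ± 0.194 with IL-1B and 6.24 ± 0.203 (n = 12) with allogeneic serum. The step of 0.59 from DRlyp/lyp to autologous exceeded the pooled SD of its groups (0.228), as did that of 0.17 from IL-1RA added to DRlyp/lyp (0.142). Limma called neither step (unadjusted p = 0.0112 and 0.439). For Abcg1 the order was the same among day-60 groups (7.92 ± 0.242, 7.68 ± 0.258 and 7.66 ± 0.261), followed by IL-1B (7.08 ± 0.343), allogeneic (6.78 ± 0.373) and autologous serum (6.51 ± 0.696), and the step of 0.58 to IL-1B exceeded its pooled SD (0.305). For Fabp5, Mylip, Apoe and Srebf1 no neighbouring groups differed by more than their pooled SD.

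**Figure D2:**
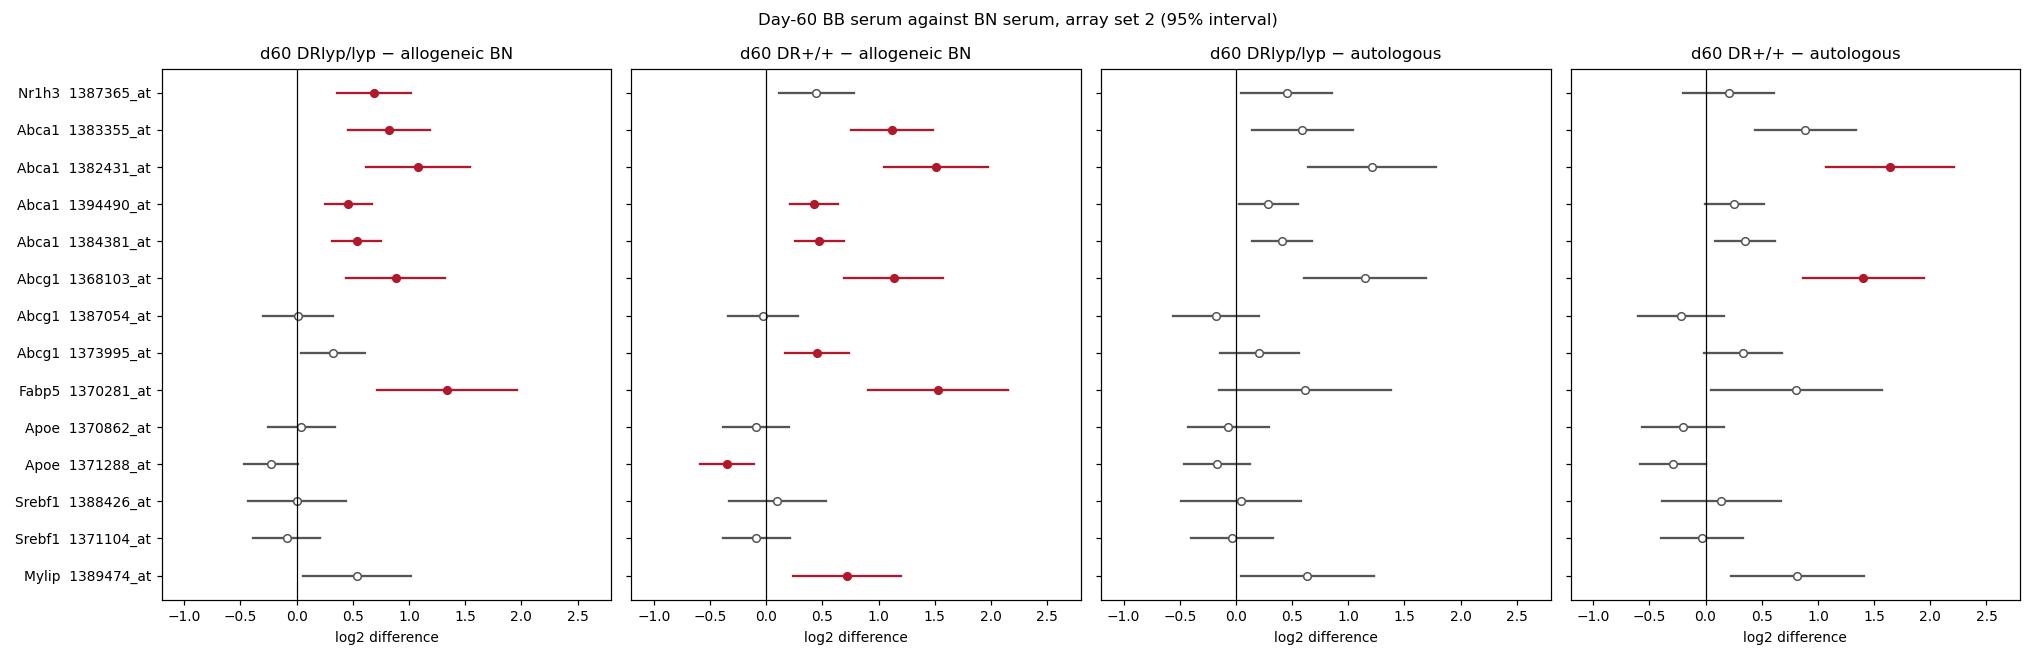
Log2 difference of each of the 14 probe sets between day-60 BB serum and BN serum in set 2, with 95% intervals from limma, filled where the adjusted p was under 0.05. The Abca1, Abcg1 (leading) and Fabp5 points lie to the right of 0 against both BN groups, with fewer calls against autologous serum.

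Monocyte genes moved with the members. Of 12 monocyte and macrophage markers, all measured, 6 were called higher with DRlyp/lyp serum than with allogeneic serum and 7 with DR+/+ serum, with 0 called lower. Over all probe sets 9.69% and 11% were called higher. Without DRlyp/lyp replicate 1 the first count was 3, and without DR+/+ replicate 3 or 4 the second was 4 or 5. Cd14, the lipopolysaccharide co-receptor, rose by 1.97 and 1.93, Mpeg1, a macrophage pore-forming protein, by 1.56 and 2.23, and Fcgr1a, an Fc receptor, by 1.11 and 1.32. The mean level of the list ran from 6.80 to 7.02 with DRlyp/lyp serum, from 6.70 to 6.99 with IL-1RA added and from 6.63 to 7.38 with DR+/+ serum, against 5.71 to 7.40 with allogeneic serum, 6.08 to 6.50 with autologous serum and 6.07 to 6.39 with IL-1B. Allogeneic replicate 15, the highest of that range, was also the highest allogeneic culture for Nr1h3 (5.42) and Abca1 (6.60). Over the 32 arrays of set 2, which share serum groups, the level of this list correlated with Abca1 at r = 0.84, Fabp5 at 0.78, Nr1h3 at 0.75, Abcg1 at 0.58 and Mylip at 0.47, and with Srebf1 and Apoe at -0.02 and -0.10. Its part in the members' results was not tested.

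RNA quality moved with the members too. The actin difference was 2.32 ± 0.150 (SD, n = 4) with DRlyp/lyp serum and 2.23 ± 0.754 (n = 4) with DR+/+ serum, against 2.78 ± 0.387 (n = 12) with allogeneic serum, and over the 32 arrays it correlated with Abca1 at r = -0.61, Abcg1 at -0.42, Fabp5 at -0.32, Mylip at -0.23 and Nr1h3 at -0.13. With it as a covariate in limma's fit, the differences from allogeneic serum were 0.65 and 0.91 for Abca1, 0.80 and 1.04 for Abcg1 and 1.41 and 1.62 for Fabp5 with DRlyp/lyp and DR+/+ serum, all still called. That of Nr1h3 with DR+/+ serum was 0.57 and passed (adjusted p = 0.0192), and that of Abcg1 1373995_at was 0.40 and did not (adjusted p = 0.0544).

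Some genes of other cell types were called as well. Over all probe sets 16% were called with DRlyp/lyp serum and 19.6% with DR+/+ serum against allogeneic serum. A single call in such short lists is near these shares. Platelet genes fell in 3 of 7 cases with DR+/+ serum (Mmrn1 by 1.37, Gp5 by 1.19, Treml1 by 0.98) and in 1 of 7 with DRlyp/lyp serum (Gp5 by 0.85). Among T cell genes Cd8a was called, 0.88 and 0.92 higher. With DR+/+ serum 2 of 4 neutrophil genes rose (S100a8 by 0.95, Csf3r by 0.65), the B cell kinase gene Blk rose by 0.62 and the granzyme gene Gzmb fell by 0.45. With DRlyp/lyp serum the natural killer receptor gene Klrb1a rose by 0.67. No erythroid gene was called in either comparison. Many of these calls rest on single arrays. Without DRlyp/lyp replicate 1 limma called 0 T cell, 0 natural killer and 0 platelet genes. Without DR+/+ replicate 3 it called 0 T cell, 3 neutrophil and 2 platelet genes, and without DR+/+ replicate 4 it called 3, 1 and 2. The part of these cell types in the members' results was not tested either.

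Among genes of the wider lipid pathway, the share called with DRlyp/lyp serum was close to that over all probe sets. Of 53 further lipid genes, 49 were measured. With DRlyp/lyp serum against allogeneic serum 7 rose and 1 fell, where 16% of all probe sets were called, 9.69% higher and 6.3% lower. With DR+/+ serum 12 rose and 0 fell, where 19.6% of all were called, 11% higher and 8.53% lower. Median differences of the 49 were 0.02 and below 0.01, beside -0.05 over all probe sets. These counts rest on single arrays: without DRlyp/lyp replicate 1 limma called 0 of the 49 (11 at an unadjusted p under 0.05), without DR+/+ replicate 3 it called 6 higher and 0 lower, and without DR+/+ replicate 4 it called 12 higher and 6 lower. None of the 49 was called in the other 10 comparisons within a set.

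Among 5 measured receptor partners and cofactors 0 were called with DRlyp/lyp serum. With DR+/+ serum 3 rose: Ncoa1, a coactivator, by 1.02, Rxrb, a retinoid X receptor, by 0.73, and Ncor1, a corepressor, by 0.54. Among 15 other target genes Smpdl3a, a phosphodiesterase, rose in both comparisons (0.90 and 0.74). The fatty acid synthesis genes Scd2 and Fasn rose with DR+/+ serum (0.97 and 0.82), and Mertk, a receptor for the uptake of dead cells, fell with DRlyp/lyp serum by 0.46.

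Among 19 fatty acid genes 5 rose with DRlyp/lyp and 4 with DR+/+ serum. Cpt1a, which admits fatty acids to mitochondria, rose by 0.93 and 1.33. Acsl4, an acyl-CoA synthetase, rose by 1.00 and 1.05, and Plin2, which coats lipid droplets, by 0.94 and 0.99. Among 10 genes of oxysterol and cholesterol handling Npc2, a lysosomal cholesterol carrier, rose by 0.71 and 0.58, and Lrp1, an APOE receptor, by 0.67 with DR+/+ serum.

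Day-60 BB serum differs from autologous serum in donor, strain and donor age at once, and these cannot be told apart. Autologous serum is the control in which the donor does not change. Against it, day-60 DR+/+ serum raised 2 of the 14 members, where 0.271% of all probe sets were called: Abca1 1382431_at by 1.64 (SE 0.279, adjusted p = 0.0074; 3.12-fold) and Abcg1 by 1.40 (SE 0.265, adjusted p = 0.0119; 2.64-fold). Both calls held in 7 of 8 fits that left out 1 array and were lost without autologous replicate 7, the culture with the lowest level of both (5.41 and 5.60), where the differences were 1.53 and 1.10 (adjusted p = 0.0805 and 0.118). Both were also lost when only the 2 groups were fitted, and both held without DR+/+ replicate 4 (1.20 and 1.40, adjusted p = 0.0249 and 0.0311). The leading Abca1 probe set differed by 0.89 (adjusted p = 0.0666), and by 0.54 without replicate 4. Of the 12 monocyte markers 2 were called, Mpeg1 (2.23) and Fcgr1a (1.10).

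With DRlyp/lyp serum against autologous serum limma called 0 of the 14, where 0.00644% of all were called. At an unadjusted p under 0.05 stood 7 of the 14 members and 1501 of all probe sets (4.84%). Differences were 1.21 for Abca1 1382431_at (interval 0.64 to 1.78, adjusted p = 0.233), 1.15 for Abcg1 (0.61 to 1.69, adjusted p = 0.233), 0.59 for Abca1 (0.14 to 1.04) and 0.45 for Nr1h3 (0.04 to 0.86). For these 4 probe sets each DRlyp/lyp culture lay above each autologous one, as did 0.857% of all probe sets. The adjusted p of 0.233 was the lowest among the members.

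No member was called between the BB lines. DRlyp/lyp minus DR+/+ serum gave 0 calls among the 14, where 0.00322% of all were called, and 0 of 14 and 1544 of all probe sets had an unadjusted p under 0.05 in limma. The largest differences were -0.43 for Abca1 1382431_at (SE 0.279), -0.30 for Abca1 (interval -0.75 to 0.15), -0.25 for Abcg1 (-0.79 to 0.29) and 0.24 for Nr1h3 (-0.16 to 0.65).

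Interleukin-1 was blocked or added in culture to see how much of the response it carries. IL-1RA in day-60 DRlyp/lyp serum gave 0 calls among the members and 0 over the array (0% called) in limma, with 0 of 14 and 808 of all at an unadjusted p under 0.05. Abca1 measured 7.06, 7.30, 7.16 and 7.44 with IL-1RA, which overlaps with the 6.93 to 7.17 without it (0.17 higher; interval -0.28 to 0.62). Nr1h3 measured 4.77, 5.54, 5.27 and 5.15, a difference of -0.31 (interval -0.72 to 0.09), and Srebf1 measured 8.68, 8.77, 8.37 and 8.49, a difference of 0.42 (interval -0.11 to 0.96). Abcg1 (0.01) and Fabp5 (-0.19) differed by less, with intervals of -0.53 to 0.55 and -0.95 to 0.58.

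IL-1B in autologous serum gave 0 calls among the members and 0% over the array as well, with 1 of 14 and 855 of all at an unadjusted p under 0.05 in limma. Abca1 measured 6.24, 6.11, 6.35 and 6.56, overlapping with the autologous cultures. The member at an unadjusted p under 0.05 was Abcg1, with 6.92, 6.78, 7.57 and 7.05, where 1 of the 4 lay above all autologous cultures. It was 0.57 higher (interval 0.03 to 1.11, adjusted p = 1).

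Allogeneic and autologous BN serum were compared in each set. In set 2 limma called 0 of 14 members, where 0.00644% of all were called, and 1 of 14 and 4817 of all had an unadjusted p under 0.05. The member was Fabp5, with a difference of -0.72 (interval -1.35 to -0.10, adjusted p = 0.256). In set 1 0 of 14 were called (0.029% of all, 0.00644% higher and 0.0226% lower), with 1 of 14 and 4266 of all at an unadjusted p under 0.05. The member was the dim Abca1 probe set 1394490_at, with a difference of -0.43 (interval -0.86 to -0.01, adjusted p = 0.351). Srebf1 differed by -0.45 (interval -0.93 to 0.02), a value that rests on allogeneic replicate 2 (7.06, beside 7.99 and 8.27): without it the difference was -0.10. The test of the difference between the sets called 0 members and 0.696% of all probe sets (0.612% higher, 0.0838% lower).

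**Figure D3:**
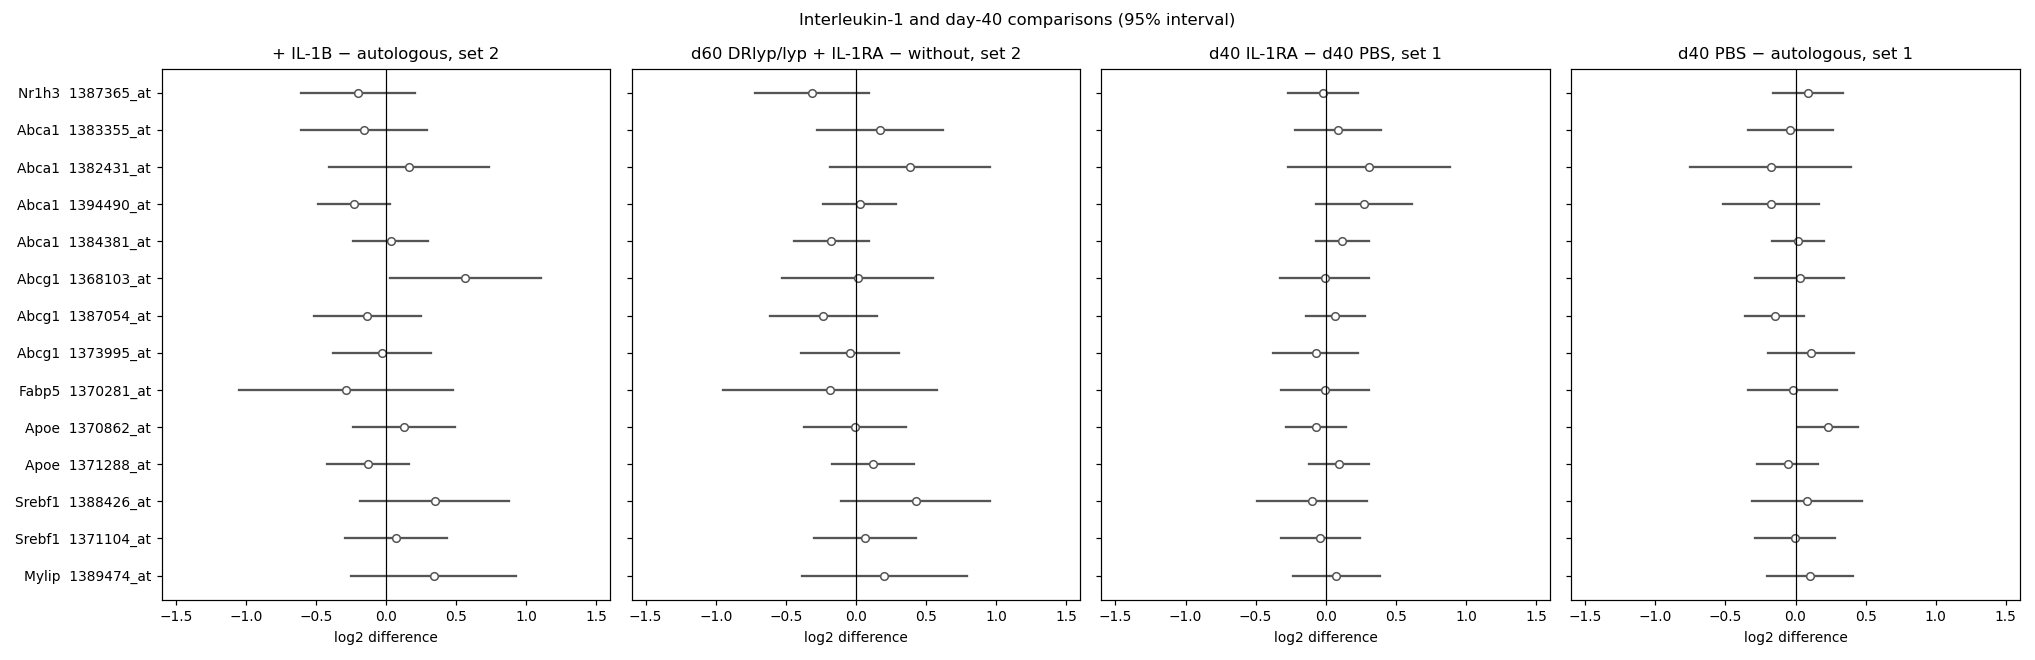
Log2 differences of the 14 probe sets, with 95% intervals from limma, for IL-1B added, IL-1RA added, IL-1RA treatment of the day-40 donors and day-40 PBS serum against autologous serum. All points are open, since 0 of 14 were called in each panel, and the intervals of leading probe sets leave out 0 for Abcg1 with IL-1B and for Apoe with day-40 PBS serum.

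Serum of 40-day-old DRlyp/lyp rats left the members close to their level with autologous serum. In PBS-treated donors Abca1 ran from 6.21 to 6.64 (median 6.47), beside 6.19 to 6.77 (median 6.48) in the 6 autologous cultures of set 1. Abcg1 ran from 8.00 to 8.44 (median 8.36) beside 7.70 to 8.52 (median 8.34), Nr1h3 from 4.27 to 4.84 (median 4.51) beside 4.21 to 4.70 (median 4.46) and Fabp5 from 7.95 to 8.32 (median 8.09) beside 7.58 to 8.48 (median 8.16). The groups overlapped for each of these genes. Limma called 0 of 14 members and 0% of all probe sets, with 1 of 14 and 1523 of all at an unadjusted p under 0.05. The differences were -0.04 for Abca1 (interval -0.34 to 0.27), 0.03 for Abcg1 (-0.29 to 0.35), 0.09 for Nr1h3 (-0.16 to 0.34) and -0.02 for Fabp5 (-0.34 to 0.29). The lowest p was that of Apoe, 0.23 higher (interval 0.02 to 0.44, adjusted p = 0.986).

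Treatment of the day-40 donors with IL-1RA gave no call among the members either. Against PBS 0 of 14 and 0% of all were called by limma, with 0 of 14 and 923 of all at an unadjusted p under 0.05. Against autologous serum 0 of 14 and 0% were called, with 0 of 14 and 417 of all at an unadjusted p under 0.05. With the replicate number as a block, 3 and 4 of all probe sets passed, 0 of them members. With serum of treated donors Abca1 ran from 6.11 to 6.97 (median 6.55) and Mylip from 9.51 to 10.1 (median 9.62), and both overlapped with the PBS group. The largest member difference from PBS was 0.31 for Abca1 1382431_at (interval -0.27 to 0.88), and the leading Abca1 probe set differed by 0.09 (-0.22 to 0.39). Mean monocyte marker levels ran from 5.63 to 6.52 with PBS, from 5.49 to 6.82 with IL-1RA treatment and from 5.62 to 6.57 with autologous serum in set 1.

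Day-60 and day-40 serum were not run in the same set, so donor age and array set cannot be told apart. Each minus its own autologous cultures, day-60 DRlyp/lyp serum exceeded day-40 PBS serum by 1.39 for Abca1 1382431_at (SE 0.406, adjusted p = 0.948) and by 1.12 for Abcg1 (SE 0.31, adjusted p = 0.948). In limma's test of this difference over 53 arrays 0 of 31042 probe sets passed (0%).

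Correlations among the members were uneven and differed between the sets. In set 2 the leading probe sets of Nr1h3, Abca1 and Fabp5 rose and fell together over 32 arrays, with r = 0.58 for Nr1h3 with Abca1, 0.71 for Nr1h3 with Fabp5 and 0.77 for Abca1 with Fabp5, and Abcg1 correlated most with Mylip, at 0.88. Abcg1 also correlated with Abca1 in set 2, at 0.61. In set 1 the correlation of Abcg1 with Mylip was 0.38 over 21 arrays. There Nr1h3 correlated with Mylip at 0.66, with Abcg1 at 0.64 and with Abca1 at 0.50. Srebf1 correlated little with Nr1h3 (0.12) and Abcg1 (0.09) in set 2. Among leading probe sets it correlated most with Apoe, at 0.46 in set 2 and 0.55 in set 1. These arrays share serum groups and processing, and the values are descriptions.

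**Figure D4:**
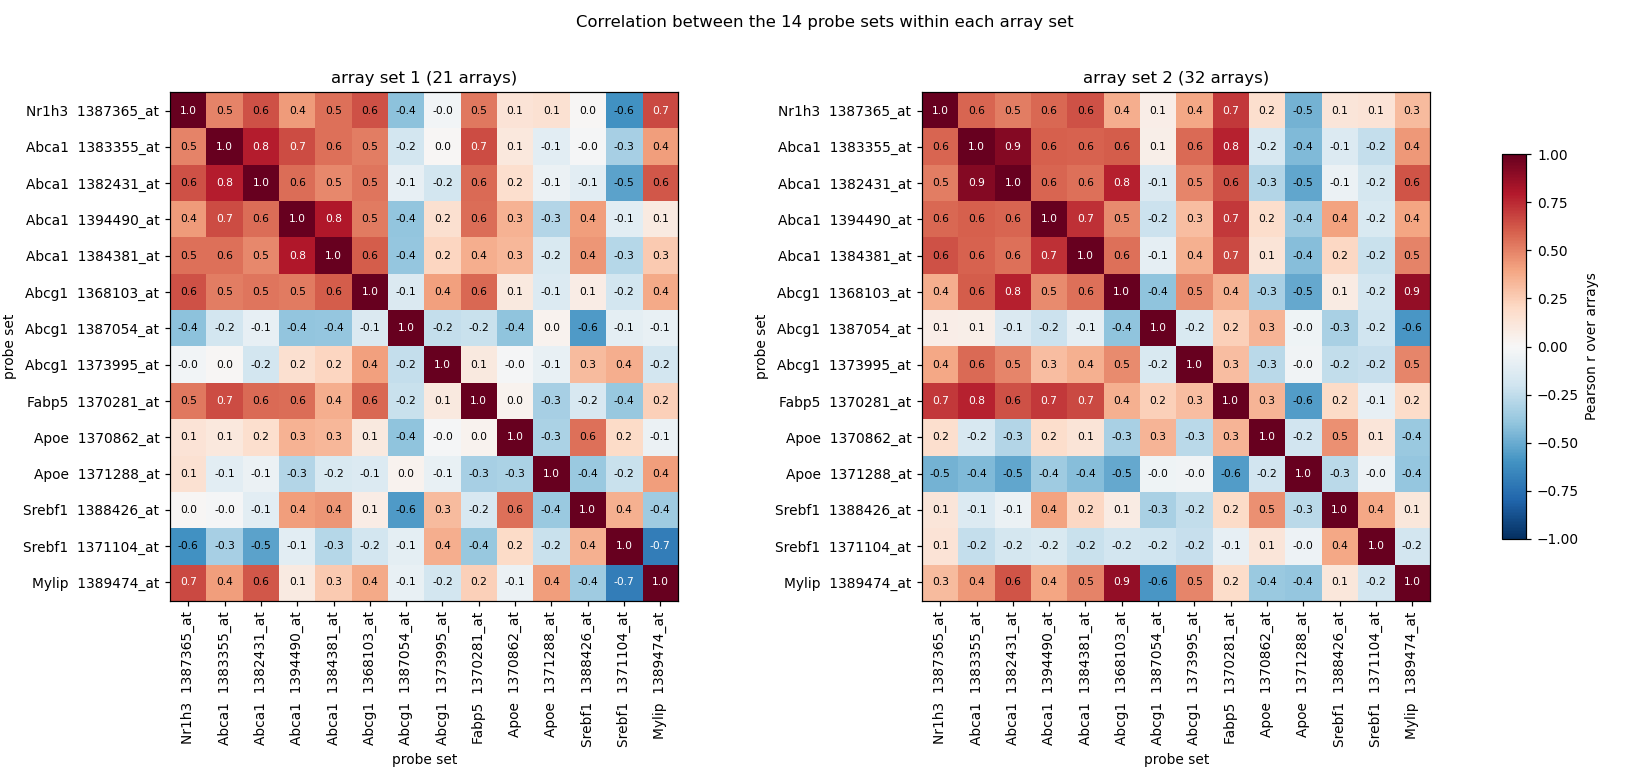
Pearson correlation between the 14 probe sets over the arrays of set 1 (left, 21 arrays) and set 2 (right, 32 arrays), in red above 0 and blue below. The Abca1, Nr1h3 and Fabp5 cells are red in both panels, and the cell of Abcg1 with Mylip is darker in set 2.

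Over all 53 arrays with set means removed, the 2 genes of 13976 whose level ran most like each member were also read out. Nr1h3 was closest to Lgals3 (r = 0.78), the gene of galectin-3, and Csf1r (0.78), the receptor of macrophage colony-stimulating factor. Abca1 was closest to Sowahc (0.86) and Akr1b8 (0.85), an aldo-keto reductase, and Fabp5 to Fcgr2b (0.86), an Fc receptor, and Cstb (0.85), the protease inhibitor cystatin B. Abcg1 was closest to Arsb (0.83), a lysosomal sulfatase, and Hmgxb4 (0.80). Mylip was closest to the tyrosine kinase gene Fyn (0.81) and Mthfs (0.81), Srebf1 to Taf6l (0.88) and Limd2 (0.86), and Apoe to Scand1 (0.66) and Psmd9 (0.65).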

How the data were processed

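The deposited table holds log2 expression per probe set, from 1 Affymetrix rat array per culture. RMA, a method that subtracts background, equalises arrays and combines the probes of a set, and Partek 6.2 are named, per the submitters' processing notes. No sources used here give their settings or RMA's version. Such values understate changes of dim probe sets, and the number of arrays limits precision.

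Of 31099 probe sets 57 controls were left out. The platform annotation gave 1 symbol for 20826 of the rest, several for 436 and none for 9780. Group means were fitted within each array set with limma 3.58.1 (trended variances) in R 4.3.3, and differences between sets over all 53 arrays. Adjustment was Benjamini-Hochberg over 31042 probe sets, with calls at 0.05. SE, intervals (95%) and adjusted p-values are limma's. The fit was tested on simulated data. Figures used Python 3.11.15 and matplotlib 3.10.9.

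The array sets were seen in the data, and Ward clustering placed 53 of 53 arrays as stated. The highest correlation of a pair of arrays was 0.996. Members, gene lists, array sets and tests were chosen with earlier results of these data known. Each member probe set is reported, up to 3 called genes of each other list with the largest change are named, and 2 genes most like each member. The related repeat, and list counts without single arrays, were added after the data were seen. Alternatives were 1 model of all arrays with or without the sets, other scalings, a filter on dim probe sets, a replicate block, only the groups compared, actin as a covariate, and leaving out each array. Same-numbered cultures deviated together (every pair above r = 0.1) in 3 comparisons: DRlyp/lyp minus DR+/+ (lowest r 0.175), and day-40 IL-1RA minus autologous (0.129) and minus PBS (0.401). The labels do not state a pairing.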

Additional observations from a re-analysis of the deposited data

Results flagged for a closer look

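Of 112 checks of 1 probe set in 1 group of 4 to 10 arrays, 9 found an array far from the others of its group, where chance gives about 1 in 20, and all 9 lay in set 1. Checked groups held 6 arrays each in set 1 and 4 each in set 2, and the allogeneic groups were not checked. The lack of a flag in the smaller groups does not show that no array stood apart. DR+/+ replicate 4, for instance, was not flagged for Abca1, at 8.42 beside a group median of 7.12. The leading Abcg1 probe set was low in replicate 5 of the autologous group (7.70, others 8.28 to 8.52) and of the day-40 PBS group (8.00, others 8.31 to 8.44). Abcg1 1387054_at was low in autologous replicate 3 (4.51, others 4.96 to 5.14). Abca1 1394490_at was high in day-40 PBS replicate 3 (3.97, others 3.35 to 3.54). In the day-40 IL-1RA group Srebf1 was low in replicate 5 (7.71, others 8.22 to 8.44) and Mylip was high in replicate 1 (10.1, others 9.51 to 9.72). Apoe 1371288_at was low in autologous replicate 4 (3.68, others 3.97 to 4.09), high in day-40 IL-1RA replicate 5 (4.43, others 3.90 to 4.01) and high in day-40 PBS replicate 1 (4.32, others 3.77 to 3.97).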

How the results depend on the processing

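No member difference that was called changed its direction under any alternative that was run. Counts below are of all probe sets called, with members named where they moved, and the cause of each move was not tested unless stated. One model of 10 means over 53 arrays called 11 (members 1) for DRlyp/lyp minus autologous, 418 for DR+/+ minus autologous, 0 for DRlyp/lyp minus DR+/+, 1 for day-40 IL-1RA minus PBS and 332 for allogeneic minus autologous in set 1. One model that ignored the array sets called 51 (members 1), 701 for DRlyp/lyp minus allogeneic, 227 (members 4) for DR+/+ minus allogeneic, 0 for DRlyp/lyp minus DR+/+, 1 for day-40 IL-1RA minus autologous and 12614 (members 1) for allogeneic minus autologous, where by construction the sets enter the difference. A second quantile normalization called 1 for DRlyp/lyp minus autologous, 2367 and 3742 for DRlyp/lyp and DR+/+ minus allogeneic, 5 and 2 for allogeneic minus autologous in sets 2 and 1, and 78 for their difference. Median centring called 0 and 17 for allogeneic minus autologous in sets 2 and 1. Keeping probe sets above the median level, which leaves out the dim members, called 1 for DRlyp/lyp minus autologous and 74 for allogeneic minus autologous in set 1, and members 4 and 5 for DRlyp/lyp and DR+/+ minus allogeneic. Fitting only the groups compared called 0 (members 0) for DR+/+ minus autologous, 2797 for DR+/+ minus allogeneic, 0 for DRlyp/lyp minus DR+/+ and 3 for allogeneic minus autologous in set 1. Actin as a covariate called 1 for DRlyp/lyp minus autologous, 7838 for DRlyp/lyp minus allogeneic, 490 and 0 for allogeneic minus autologous in sets 2 and 1, and 0 for their difference.

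The replicate block changed no member call. With it 0 probe sets were called for DRlyp/lyp minus DR+/+ (1 without it), 4 for day-40 IL-1RA minus autologous (0 without), 3 for day-40 IL-1RA minus PBS (0 without), 4 for allogeneic minus autologous in set 2 (2 without) and 0 in set 1 (9 without). In the last 2 comparisons, in day-40 PBS minus autologous and in IL-1RA added, not every same-numbered pair passed r = 0.1. Their lowest correlations were -0.231, 0.0875, 0.0514 and 0.0706, and their highest 0.277, 0.464, 0.783 and 0.649. Differently numbered cultures averaged 0.000774, -0.0490, -0.0575 and -0.124. A pairing of the day-40 PBS or IL-1RA added cultures therefore remains possible, and the intervals given above do not use it. No paired analysis was possible because fewer than 2 numbers are shared, for DRlyp/lyp or DR+/+ minus autologous or allogeneic and for IL-1B minus autologous.

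Leaving out each array in turn gave 0 to 8 probe sets for DRlyp/lyp minus autologous, 5 to 298 (members 0 to 3) for DR+/+ minus autologous, 292 to 7368 (members 2 to 7) for DRlyp/lyp minus allogeneic, 2176 to 8967 (members 6 to 11) for DR+/+ minus allogeneic, 0 to 134 and 0 to 1168 for allogeneic minus autologous in sets 2 and 1, 0 to 1040 for their difference, 0 to 1 for day-40 IL-1RA minus autologous and minus PBS, and 0 to 1 for the day-60 minus day-40 difference. The extremes of the comparisons with day-60 serum and of allogeneic minus autologous lay, with others, without autologous replicates 7 and 9, DRlyp/lyp replicates 1 and 4, DR+/+ replicates 1, 3 and 4, autologous replicate 10, and allogeneic replicates 1 and 2 of set 1.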
